A study of Phaseolus vulgaris with 12 samples.

Results

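A set of 3 leaf transcripts of the light reactions were followed in dwarf bean (Phaseolus vulgaris): PHAVU_002G269400g, which the deposited tables name PSI-N, and PHAVU_006G216800g and PHAVU_010G128900g, which the study names for electron transfer in photosynthesis. They are 3 of the 27996 genes listed. The study named all 3 among the genes that differed between drought 6PP and drought polymer plants, so they were selected on the measured expression values of that contrast. The contrast is therefore given below as a description, with no test.

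RNA was sequenced from trifoliate leaves, which hold a mixture of leaf cells, of plants with the genotype label Dwarf messi. The drought 6PP group came from seeds coated with a carrier polymer plus 114 mM 6-pentyl-alpha-pyrone (6PP), a volatile of Trichoderma fungi, and the drought polymer group from seeds coated with the polymer alone. Both had 16 days without irrigation and are labelled as wilting stage 3. The well-watered 6PP and well-watered polymer groups had the same coatings and were irrigated. All groups therefore carried the polymer, and no uncoated seed was compared. Each group had 3 biological replicates by the labels, each a pool of 5 plants. Of the drought 6PP group only the library of replicate 3 could be used, so comparisons with that group have no replicate check. In such bulk leaf samples, fewer cells of a type and less RNA per cell cannot be told apart.

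The light reactions of photosynthesis move electrons from water through photosystem II, plastoquinone, the cytochrome complex and plastocyanin to photosystem I, which passes them to ferredoxin and on to NADPH. PSI-N is a small nuclear-encoded subunit of photosystem I that lies on the lumen side of the thylakoid membrane, and in Arabidopsis it takes part in the docking of plastocyanin. Chlorophyll-binding proteins of the antenna feed light energy to both photosystems, and Rubisco activation keeps the carbon-fixing enzyme downstream of them in its working state.

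The 3 genes lie on different chromosomes and share little in structure. By the coordinates in the deposited tables, which do not name an assembly, PSI-N spans positions 43432093 to 43433284 on the minus strand of chromosome 2, with 3 exons and 921 exon bases. PHAVU_006G216800g spans 31673761 to 31674578 on the plus strand of chromosome 6 and is a single exon of 818 bases. PHAVU_010G128900g spans 39877333 to 39880372 on the plus strand of chromosome 10, with 2 exons and 1867 exon bases. No listed gene overlapped any of them, and the nearest listed gene was 3555 bases from PSI-N, 221 bases from PHAVU_006G216800g and 10801 bases from PHAVU_010G128900g. All reads of PSI-N and PHAVU_010G128900g, and at least 98.0% of those of PHAVU_006G216800g, were counted as unique in every library.

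The 10 libraries held 39974999 to 55648172 gene reads. The drought 6PP library stood apart from the others in 2 measures. By the total of mapped reads worked out from the deposited RPKM values, 86.1% of the reads of the drought 6PP library fell in genes, against 94.3 to 96.3% in the drought polymer libraries, and 7.997% of its gene reads were intron reads, against 5.28 to 6.08% in the drought polymer libraries. The part of this in the results on that library was not tested. Transcripts of green leaf tissue were followed by the summed level of 7 photosynthesis genes named by the study, 6 chlorophyll-binding genes and a gene of Rubisco activation. The study chose these genes on the drought libraries, so their sum cannot tell the make-up of the tissue from the response to drought. The sum was 820.6 TPM in the drought 6PP library and 1753 to 2926 TPM in the drought polymer libraries, against 16867.5 to 20181 TPM in the well-watered 6PP and 17518 to 18537 TPM in the well-watered polymer libraries, and none of the 7 was at 0 in any library. The gene of Rubisco activation, PHAVU_001G234300g, differed from that sum under drought, with 286.0 TPM in the drought 6PP library, against 107.8 to 131.7 TPM in the drought polymer libraries.

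PSI-N was the most abundant of the 3 transcripts in every library, on the length-corrected TPM scale (transcripts-per-million). Its level was 129.0, 186.8 and 222.7 TPM in drought polymer plants, against 2403, 2090.2 and 2406 TPM in well-watered polymer plants. The well-watered 6PP plants had 2295, 2337 and 2730.1 TPM, and the drought 6PP library had 136.2 TPM. Every drought library lay below every well-watered library, with no overlap. Among all genes ordered by TPM, PSI-N stood at place 1048 in the drought 6PP library and at places 711 to 1364 in the drought polymer libraries, against places 35 to 51 in the well-watered 6PP and 45 to 50 in the well-watered polymer libraries.

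PHAVU_006G216800g had 20.8, 31.2 and 41.0 TPM in drought polymer plants, against 267.7, 281.4 and 284.4 TPM in well-watered polymer plants. The well-watered 6PP plants had 346.7, 249.7 and 255.8 TPM, and the drought 6PP library had 3.87 TPM. As for PSI-N, all drought libraries lay below all well-watered ones, and here the drought 6PP library also lay below all 3 drought polymer libraries. It rested on 88 reads of this gene, against 477 to 867 reads in the drought polymer libraries and 5296 to 8223 in the well-watered libraries. By TPM the gene stood at place 13393 in the drought 6PP library and at places 4440 to 7756 in the drought polymer libraries, against places 347 to 499 in the well-watered 6PP and 447 to 457 in the well-watered polymer libraries.

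PHAVU_010G128900g had 27.0, 25.3 and 46.5 TPM in drought polymer plants, against 41.7, 56.0 and 33.7 TPM in well-watered polymer plants. The well-watered 6PP plants had 43.3, 36.8 and 39.1 TPM, and the drought 6PP library had 40.9 TPM. The groups overlapped throughout: drought polymer replicate 3 was above well-watered polymer replicates 1 and 3, and the drought 6PP library lay within the range of each of the other groups.

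**Figure D1:**
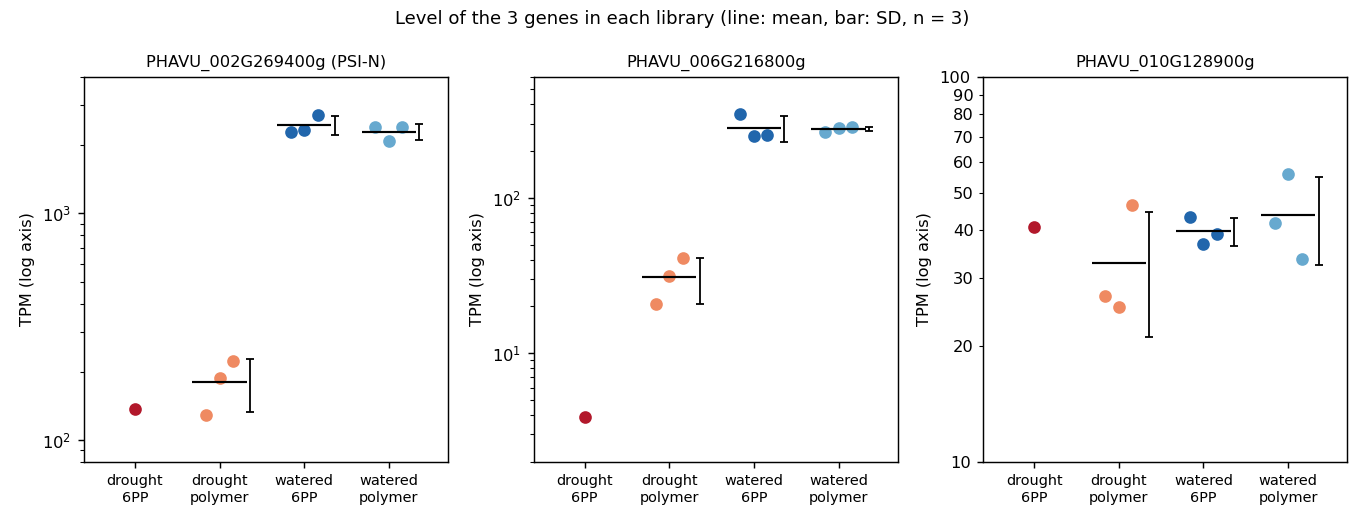
Level of PSI-N (PHAVU_002G269400g), PHAVU_006G216800g and PHAVU_010G128900g in each library, in TPM on a log axis, for the drought 6PP, drought polymer, well-watered 6PP and well-watered polymer groups ("watered" stands for well-watered). Points are libraries, lines are group means and bars are SD (n = 3, the drought 6PP group being a single library without mean or bar). The drought and well-watered libraries do not overlap for the first 2 genes and overlap for the third.

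Ordered by mean level, PSI-N had 2454 ± 240 TPM in well-watered 6PP, 2300.0 ± 182 TPM in well-watered polymer and 179.5 ± 47.3 TPM in drought polymer plants (SD, n = 3 each), with the drought 6PP library last. The well-watered pair overlapped, and the drought 6PP library lay within the drought polymer range. PHAVU_006G216800g had 284.1 ± 54.3 TPM in well-watered 6PP, 277.8 ± 8.89 TPM in well-watered polymer and 31.0 ± 10.1 TPM in drought polymer plants (SD, n = 3 each). Its well-watered pair overlapped too, whereas its drought groups did not. For PHAVU_010G128900g the means were 43.8 ± 11.3 TPM in well-watered polymer, 39.7 ± 3.30 TPM in well-watered 6PP and 32.9 ± 11.8 TPM in drought polymer plants (SD, n = 3 each), and no neighbours in this order were apart by more than their spread.

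The response to drought without 6PP was tested between drought polymer and well-watered polymer plants. Gene reads were fitted across all 22398 genes that passed the filter on low counts, and a gene was called where the log2 fold change was at least 0.6 in size, the false discovery rate (FDR) at most 0.01 and the Bonferroni p at most 0.05. All 3 genes passed the filter. PSI-N and PHAVU_006G216800g were called lower in drought, 2 of 3, against 7.20% of all genes tested (1613 genes). This comparison shares its drought polymer libraries with the contrast that chose the genes.

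PSI-N fell by 3.69 on the log2 scale (SE 0.21, edgeR quasi-likelihood test, FDR 8.92e-08), which is 12.9-fold lower. Its normalised read count was 104.2 ± 28.6 counts-per-million (CPM) in drought polymer plants and 1342 ± 136 CPM in well-watered polymer plants (SD, n = 3 each). It had the change of rank 954 from the most negative, at percentile 4.26 of all genes tested. PHAVU_006G216800g fell by 3.18 on the log2 scale (SE 0.24, edgeR quasi-likelihood test, FDR 6.5e-07), 9.05-fold lower. Its normalised read count was 16.0 ± 5.38 CPM in drought polymer plants and 144.3 ± 6.94 CPM in well-watered polymer plants (SD, n = 3 each), and its change stood at percentile 5.78. Neither gene's groups overlapped, and groups lower in drought without overlap were common, at 32.5% of all genes tested.

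PHAVU_010G128900g was not called. Its normalised read count was 38.8 ± 13.8 CPM in drought polymer plants and 52.5 ± 12.2 CPM in well-watered polymer plants (SD, n = 3 each), and the log2 fold change was -0.44 (SE 0.22, edgeR quasi-likelihood test, FDR 0.12). The value moved with single libraries, being -0.77 when drought polymer replicate 3 was left out and -0.24 when well-watered polymer replicate 2 was, and it was not called in either case. Without drought polymer replicate 3 the FDR was 0.00431 by edgeR, so that the gene passed the limits on fold change and FDR and missed the Bonferroni limit. The study's methods name 2 growth chambers, and the labels do not give the chamber of a library. Whether the chambers split the plants by irrigation is not stated, so the part of the chamber in the drought comparison was not tested.

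**Figure D2:**
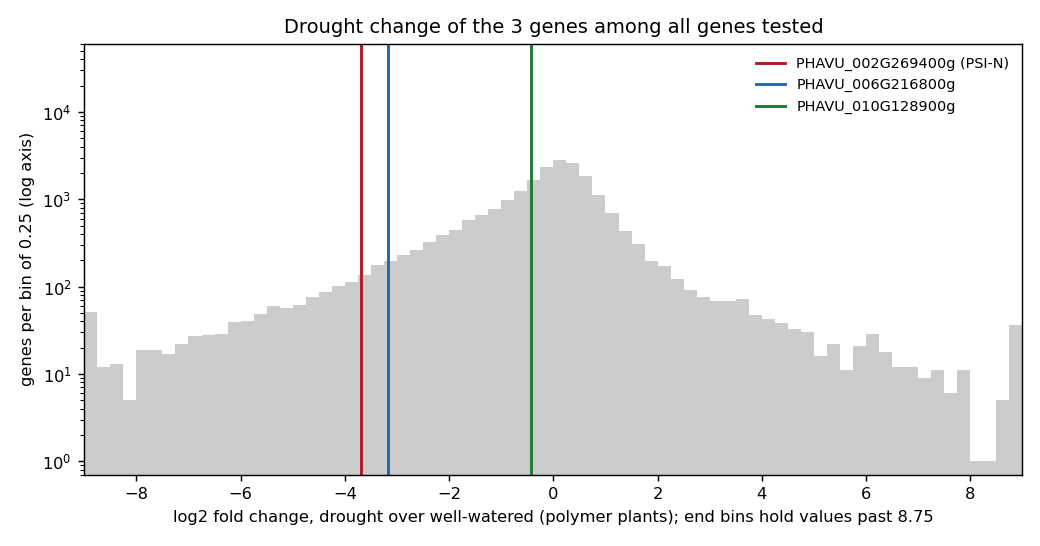
Distribution of the log2 fold change of drought over well-watered polymer plants for the 22398 genes tested, in bins of 0.25 with the number of genes on a log axis and changes beyond the axis counted in the end bins. Vertical lines mark PSI-N at -3.69, PHAVU_006G216800g at -3.18 and PHAVU_010G128900g at -0.44, and the median of all genes was -0.01.

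The effect of 6PP without drought was tested between well-watered 6PP and well-watered polymer plants, a comparison that shares no library with the contrast that chose the genes. None of the 3 genes was called, and neither was any other gene (0.00% of 22398 by edgeR, with 1232 genes, 5.50%, at an unadjusted p under 0.05, and 4 genes called by DESeq2). The study itself, with other software and the same limits, reports genes that differed in this comparison. PSI-N had 1447, 1367 and 1719 CPM in well-watered 6PP plants, against 1390.4, 1188 and 1448 CPM in well-watered polymer plants, giving a log2 fold change of 0.17 (SE 0.19, edgeR quasi-likelihood test, FDR 0.922). The groups overlapped, with the highest library in the 6PP group and the lowest in the polymer group, and the log2 fold change was 0.06 when well-watered 6PP replicate 3 was left out.

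PHAVU_006G216800g had 194.2, 129.5 and 143.0 CPM in well-watered 6PP plants, against 138.7, 142.1 and 152.0 CPM in well-watered polymer plants, giving a log2 fold change of 0.11 (SE 0.22, edgeR quasi-likelihood test, FDR 0.958). A single 6PP library, replicate 1, was above all others, and without it the log2 fold change was -0.08. PHAVU_010G128900g had 56.2, 45.3 and 50.5 CPM in well-watered 6PP plants, against 49.8, 65.8 and 41.8 CPM in well-watered polymer plants, giving a log2 fold change of -0.05 (SE 0.22, edgeR quasi-likelihood test, FDR 0.979). Here the polymer libraries spanned the 6PP ones on both sides, and the sign of the difference turned without well-watered 6PP replicate 2 (0.02) or well-watered polymer replicate 2 (0.14).

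Under drought, where the genes were chosen, the single 6PP library is described beside the polymer libraries. PHAVU_006G216800g had 2.46 CPM in drought 6PP, against 10.2, 16.7 and 20.9 CPM in drought polymer plants, a log2 CPM difference of -2.62 from the polymer mean. Before normalisation this was 2.16 reads-per-million, with an exact 95% interval (Clopper-Pearson, counting error only) of 1.73 to 2.66. PSI-N had 98.4 CPM in drought 6PP, against 72.5, 112.1 and 128.1 CPM in drought polymer plants, a difference of -0.04, and the library lay inside the polymer range. The sign of the PSI-N difference was not stable, being 0.02 with RLE (relative log expression) normalisation in edgeR and -0.36 on the log2(TPM + 1) scale. It was -0.28 when drought polymer replicate 1 was left out and 0.13 when replicate 3 was.

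PHAVU_010G128900g had 60.6 CPM in drought 6PP, against 30.7, 31.1 and 54.8 CPM in drought polymer plants, a log2 CPM difference of 0.70. The library lay above all 3 polymer libraries in CPM, but its 40.9 TPM lay between 25.3 and 46.5 TPM, so its place depended on the scale. The median difference of all genes was itself -0.09 in log2 CPM and -0.26 in log2(TPM + 1), and relative to it PHAVU_010G128900g differed by 0.79 and 0.61 on the same scales. Against these values, 45.9% of all genes tested differed by at least 0.6 either way, and the drought 6PP library lay outside the polymer range for 79.5% of them, so that a place outside that range in CPM, held by 2 of the 3 genes, was common.

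Between the drought 6PP library and well-watered 6PP plants, again without a replicate check, PHAVU_006G216800g differed by -5.94 in log2 CPM and PSI-N by -3.93, and both lay below all 3 well-watered 6PP libraries, as did 44.8% of all genes tested. PHAVU_010G128900g differed by 0.26 in log2 CPM and lay above the 3 well-watered 6PP libraries, as did 39.6% of all genes tested, yet in TPM its 40.9 lay between 36.8 and 43.3. This comparison shares the drought 6PP library with the one before.

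The level of PSI-N was also set against the 6 chlorophyll-binding genes of the light-harvesting antenna. PSI-N was 7.85, 7.19 and 7.97% of their summed TPM in drought polymer plants, against 16.0, 14.5 and 16.3% in well-watered polymer plants. The well-watered 6PP plants had 16.3, 16.1 and 16.7%, and the drought 6PP library had 25.5%. The ratio is a description, since its genes were chosen on the drought libraries. It was lower in all drought polymer libraries than in all well-watered polymer libraries, and the drought 6PP library was above every other library. From well-watered to drought polymer plants, mean TPM of the 6 genes fell by 4.19-fold to 11.9-fold, beside 12.8-fold for PSI-N. A ratio to their sum therefore does not hold for each of them alike. How often other ratios separate in this way was not worked out. The summed level of the 6 genes was 534.5 TPM in the drought 6PP library and 1645 to 2794 TPM in the drought polymer libraries, against 14458 to 14982 TPM in the well-watered polymer libraries.

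**Figure D3:**
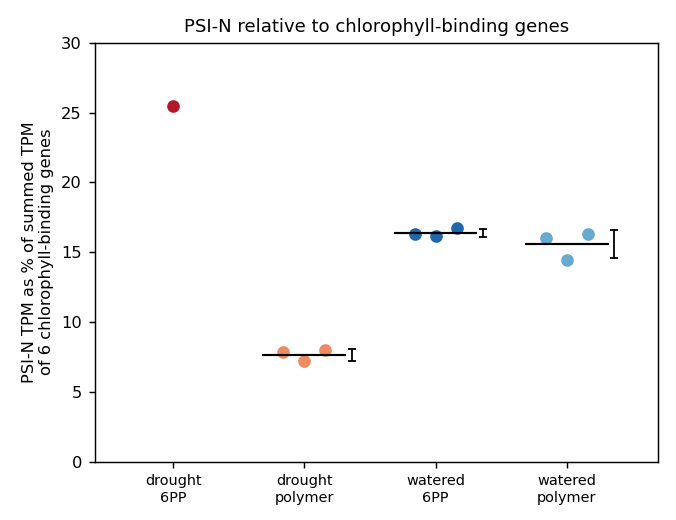
TPM of PSI-N as a percentage of the summed TPM of 6 chlorophyll-binding genes in each library of the drought 6PP, drought polymer, well-watered 6PP and well-watered polymer groups. Points are libraries, lines are group means and bars are SD (n = 3, with a single drought 6PP library). The drought polymer libraries sit between 7.19 and 7.97%, below all well-watered ones, and the drought 6PP library sits at 25.5%.

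Between the members, PHAVU_006G216800g was 2.84% of PSI-N by TPM in the drought 6PP library and 16.1, 16.7 and 18.4% in drought polymer plants, against 15.1, 10.7 and 9.37% in well-watered 6PP plants and 11.1, 13.5 and 11.8% in well-watered polymer plants. The drought polymer libraries were above all well-watered ones in this ratio and the drought 6PP library was below all of them. The value of the drought 6PP library rests on 88 reads of PHAVU_006G216800g. How often ratios of other gene pairs separate in this way was not worked out. PHAVU_010G128900g was 30.003% of PSI-N by TPM in the drought 6PP library and 13.5 to 20.9% in the drought polymer libraries, against 1.399 to 2.68% in the well-watered libraries.

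Intron reads of PSI-N and PHAVU_010G128900g are given as a share of the gene reads. Reads were also counted as intron reads for PHAVU_006G216800g, although it is a single exon. They were 0 to 1.01% of its gene reads in drought polymer and 0.377 to 1.14% in well-watered polymer plants. Shares of this size, such as those of PSI-N, may therefore hold reads that do not come from an intron. Intron reads are part of the gene reads, and the drought polymer libraries are those of the contrast that chose the genes. The shares are therefore given as a description, and no test of them is used. For PSI-N the share was 1.13, 0.625 and 0.565% in drought polymer plants, against 0.324, 0.361 and 0.484% in well-watered polymer plants. The shares did not overlap, and among 13008 genes with more than 1 exon and at least 100 reads in each library 8.86% had shares that were higher in drought without overlap. The intron reads themselves were fewer, at 0.697 to 0.849 reads-per-million in drought polymer plants, against 4.46 to 7.04 reads-per-million in well-watered polymer plants. The drought 6PP library had a share of 0.965%, within the drought polymer range, from 34 intron reads, against 0.395, 0.490 and 0.397% in the well-watered 6PP plants.

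For PHAVU_010G128900g the order of the groups was the opposite one. Its intron share was 0.771, 1.63 and 1.63% in drought polymer plants, against 2.11, 2.21 and 2.27% in well-watered polymer plants, without overlap. Shares lower in drought without overlap were found in 14.3% of the genes compared. The drought 6PP library had 2.26% and the well-watered 6PP plants had 1.80, 4.00 and 1.75%, so that the well-watered 6PP libraries spread more widely than the polymer ones. These shares rest on 11 to 84 intron reads per library.

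**Figure D4:**
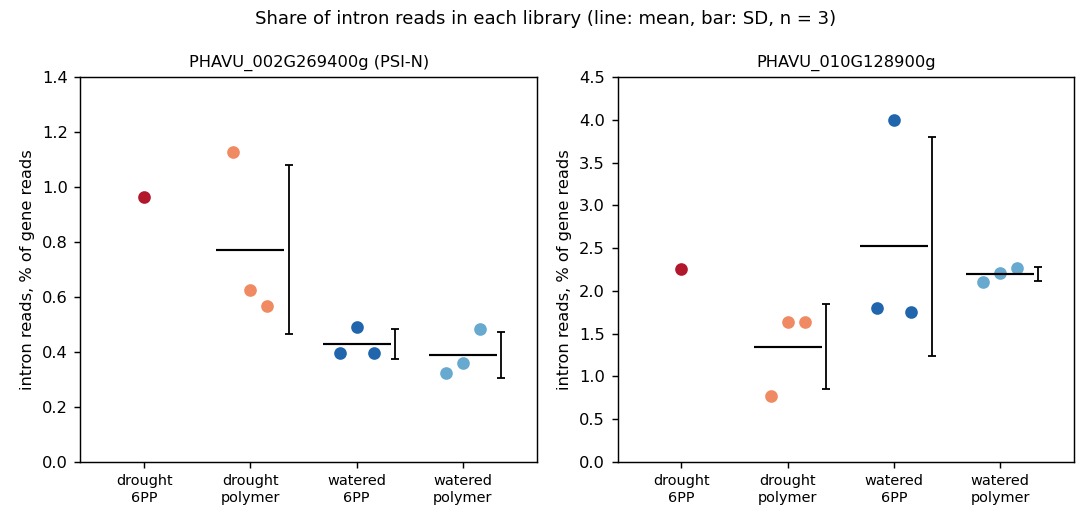
Intron reads as a percentage of the gene reads of PSI-N and PHAVU_010G128900g in each library of the drought 6PP, drought polymer, well-watered 6PP and well-watered polymer groups. Points are libraries, lines are group means and bars are SD (n = 3, with a single drought 6PP library). For PSI-N the drought polymer libraries lie above the well-watered polymer libraries, and for PHAVU_010G128900g they lie below them.

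The share of exon reads that crossed an exon junction overlapped between drought polymer and well-watered polymer plants for both genes. For PSI-N it was 48.6 ± 3.40% in drought polymer plants and 51.7 ± 1.71% in well-watered polymer plants (SD, n = 3 each). For PHAVU_010G128900g it was 18.5 ± 2.33% in drought polymer plants and 18.5 ± 2.88% in well-watered polymer plants (SD, n = 3 each).

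Across the 10 libraries, which share the split between drought and irrigation, log2 CPM of PHAVU_006G216800g and PSI-N had a Pearson correlation of 0.936, while PHAVU_010G128900g had 0.224 with PHAVU_006G216800g and 0.40 with PSI-N. Within the 6 well-watered libraries the correlation of PHAVU_006G216800g and PSI-N was 0.152, that of PHAVU_010G128900g was 0.25 with PHAVU_006G216800g and, with the opposite sign, -0.46 with PSI-N. The genes most correlated with PSI-N over the 10 libraries were PHAVU_009G064900g, PHAVU_010G133500g and PHAVU_002G304400g, each with a correlation of 0.998. They were picked by this correlation, which does not measure the size of change. Their log2 fold changes in drought polymer against well-watered polymer plants were -3.75, -1.71 and -6.01, beside -3.69 for PSI-N. Those most correlated with PHAVU_006G216800g were PHAVU_004G064800g, PHAVU_008G151800g and PHAVU_009G228300g, also at 0.998 each. In the same comparison they changed by -2.06, -1.55 and -3.04, beside -3.18 for PHAVU_006G216800g. For PHAVU_010G128900g the closest genes reached 0.923 (PHAVU_004G105100g), 0.906 (PHAVU_011G153400g) and 0.902 (PHAVU_002G202200g). These were at low levels, with group values of 0.31 to 0.393, 1.51 to 2.39 and 0.232 to 1.24 TPM, in that order. All the genes named here were picked as the most correlated among the genes tested, so their correlations are a description with no test.

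Of the 8 other photosynthesis genes the study names, 6 were called lower (7.20% of all genes tested) and 0 higher (5.12% of all genes tested) in drought polymer against well-watered polymer plants, with a median log2 fold change of -2.70, beside -3.18 for the 3 genes and -0.01 for all genes tested. The study chose these 8 on the same drought libraries, so they are not independent evidence of a direction. One that was not called was PHAVU_010G012700g, the fourth gene named for electron transfer, which had 2, 0 and 12 reads in drought polymer plants, against 2, 19 and 8 reads in well-watered polymer plants (log2 fold change -0.78, SE 1.09, edgeR quasi-likelihood test, FDR 0.569). The other was the chlorophyll-binding gene PHAVU_011G155700g (log2 fold change -2.37, SE 0.29, edgeR quasi-likelihood test, FDR 3.11e-05), whose Bonferroni p of 0.097 missed the limit. Between well-watered 6PP and well-watered polymer plants 0 of the 8 were called, with a median log2 fold change of 0.13.

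**Figure D5:**
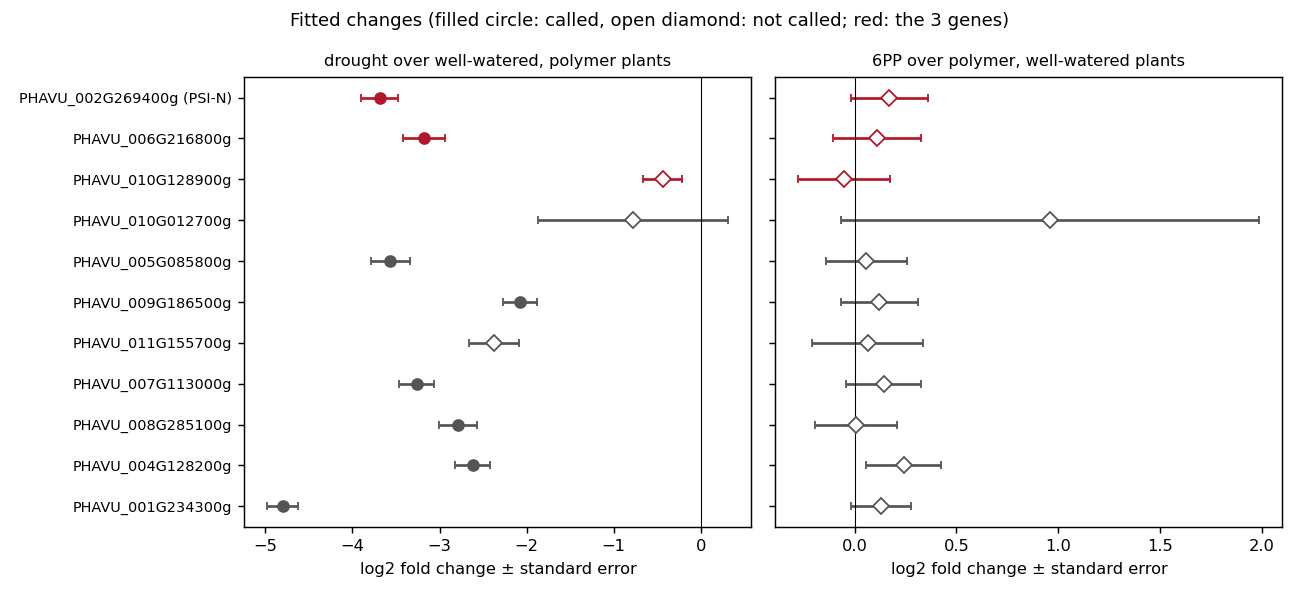
Log2 fold changes of drought over well-watered polymer plants (left) and of 6PP over polymer in well-watered plants (right) for the 3 genes (red) and the 8 other photosynthesis genes (grey). Bars are the standard error worked out from the F value of the test. Filled circles are called and open diamonds are not called, with PSI-N, PHAVU_006G216800g and 6 of the 8 called on the left and none of the genes on the right.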

How the data were processed

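Leaf RNA of 4 groups was sequenced on an Illumina platform, and the authors aligned the reads in CLC Genomics Workbench to the genome that the methods name BAT93. The authors deposited raw counts of total, unique, exon and intron gene reads per gene, TPM and RPKM values scaled for exon length and library total, and columns holding a fraction of reads. The tables used hold no fold changes or p-values of the authors' own. Of 12 samples, 10 had a single table. The file of drought 6PP replicate 2 held 2 tables, of which 1 equalled replicate 3 in every cell and was counted once, and the other, with 1033823623 reads, was not used. The file of replicate 1 held 12 tables on other identifiers, without sample labels, and was not used.

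Counts of total gene reads were tested in R 4.3.3 with edgeR 4.0.16 (filterByExpr, TMM, 1 mean per group over 10 libraries, glmQLFit and glmQLFTest). A check on simulated counts gave all genes the same spread setting, unlike these data, so it does not measure the error here. Adjusted p-values cover all 22398 genes tested. Comparisons with the single drought 6PP library are differences of log2 CPM (prior count 2), without a test. Ratios and shares are given as a description. Between drought and well-watered polymer plants, exact permutation tests of the shares and of PSI-N over the chlorophyll-binding sum gave p of at least 0.1. No smaller p is possible with 3 libraries against 3, so these tests could not decide and are not used. Exact intervals were computed with scipy 1.17.1. Alternatives were limma 3.58.1 on log2(TPM + 1), DESeq2 1.42.0, RLE normalisation, and other filters and prior counts. A replicate block and leaving out each replicate were further alternatives. P-values measure the spread between pools of 5 plants. Intervals cover counting error only.

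The genes named were the 3 genes, the fourth gene named for electron transfer, and the 3 genes most correlated with each of the 3. From the photosynthesis list, PHAVU_011G155700g was named because it was not called, unlike most of the list. PHAVU_001G234300g was named because it differed from the summed level under drought. The genes and the list were chosen with earlier results of these data known. No identifier matched the reference table of gene names, and gene names are those of the deposited tables.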

Additional observations from a re-analysis of the deposited data

How the results depend on the processing

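Under drought in polymer plants, PSI-N (-3.87 to -3.48) and PHAVU_006G216800g (-3.43 to -2.94) were called in 15 of 15 alternatives and PHAVU_010G128900g (-0.77 to -0.24) in 0 of 15. Over all genes that comparison had 2760 calls, 6225 with DESeq2 and 1668 to 2130 when a replicate was left out, lowest without drought polymer replicate 2. 6PP over polymer in well-watered plants gave 0 calls, 4 with DESeq2 and 0 in every fit that left out a replicate. There, leaving out a replicate gave 0.063 to 0.24 for PSI-N, -0.079 to 0.22 for PHAVU_006G216800g and -0.19 to 0.14 for PHAVU_010G128900g. Between drought and well-watered 6PP plants, log2(TPM + 1) and log2(TPM + 0.1) gave 0.042 and 0.043 for PHAVU_010G128900g and -4.16 and -4.17 for PSI-N. The causes were not tested.

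The main fit did not pair the libraries by replicate number. Same-numbered deviations correlated at 0.04, -0.09 and 0.03 in the drought comparison and at 0.09, 0.16 and -0.02 in the well-watered coating comparison. Drought polymer replicate 1 and well-watered 6PP replicates 1 and 2 correlated best with their own number. Replicates 2 and 3 of drought polymer and replicate 3 of well-watered 6PP did not. With 3 libraries per group these values cannot exclude a pairing. With a replicate block, 2267 genes were called in the drought comparison and 0 in the well-watered coating comparison, with the calls of the 3 genes unchanged. Low numbers of reads limit PHAVU_006G216800g in the drought 6PP library and the intron shares.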
